A study of Mus musculus with 6 samples.

Results

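The comparison described here sets Pofut1 knockout brains, in which Nestin-Cre acts on floxed Pofut1, against brains that carried the same Cre transgene with normal Pofut1. Its members are the 4 arrays of the series' 6 whose titles name the Pofut1 knockout (2 arrays) or the NestinCre control (2 arrays). Knockout brains carried Nestin-Cre and were homozygous for a floxed Pofut1 allele, and NestinCre control brains carried Nestin-Cre with wild type Pofut1. The other 2 arrays are Flox controls, which were homozygous for floxed Pofut1 and carried no Cre, and they enter below only as side values and in the estimate of the spread. All mice were C57/Bl6 and 2 months old, and total RNA came from brain tissue. Because Cre is present on both sides, the groups differ in the floxed alleles, in the loss of Pofut1 that Cre brings about, and in any DNA that came along with the floxed alleles. The series asks, by its title, what the loss of Pofut1 expression does to the self-renewal and differentiation of adult neural progenitors, whereas the arrays read RNA of brain as a whole.

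Pofut1 encodes protein O-fucosyltransferase 1, the enzyme that places fucose on EGF-like repeats of Notch receptors and some other proteins. Notch receptors need this sugar to bind their ligands well. A bound receptor is cleaved, and its intracellular part joins the DNA-binding protein RBPJ and switches on targets such as Hes5, Heyl and Nrarp. In the brain, Notch signalling is known for holding neural stem cells in an undifferentiated state, for its part in astrocytes, and for keeping the mural cells of blood vessels, the pericytes and smooth muscle cells, where the receptor is Notch3. The Nestin promoter drives Cre in neural progenitors and so in the neurons, astrocytes and oligodendrocytes that descend from them. Cells of other origin, such as endothelial cells and microglia, are not descended from these progenitors, and Nestin is also expressed in some vascular cells. In RNA from bulk tissue, fewer cells of a type and less RNA per cell cannot be told apart.

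Levels are log2 intensities, and a difference is knockout minus NestinCre control on that scale, so that 1 is a doubling. Array values are given with replicate 1 first, and each group has n = 2 arrays. Medians of the 6 arrays lay between 7.32 and 7.36, and arrays correlated with each other at 0.985 to 0.995 over all probe sets. All 23 neuronal genes measured were above the median level on these arrays, which fits the labelled tissue, and their median difference was -0.03. By Xist and the Y-linked Eif2s3y and Kdm5d, knockout replicate 1 and NestinCre control replicate 2 were male and the other 4 arrays female, so each group compared held 1 array of each sex. NestinCre control replicate 2 also stood apart in a few genes. The neutrophil genes S100a8 and S100a9 read 9.16 and 9.28 there and 6.17 to 6.97 on the other 5 arrays, and Bpifa1, a secreted protein of the airway lining that was picked after its values were seen, read 9.76 there against 5.54 to 8.06. Nothing in the labels ties an array to an animal. The 2 arrays of each compared group differ in sex, so they are not repeats of 1 animal, and their spread includes sex. Whether the 2 female Flox control arrays came from 1 animal is not known. The p-values reflect how far arrays differ within a group, which may be partly technical.

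Across all 45037 probe sets, 0 passed an adjusted p of 0.05 in limma (0%), and the smallest adjusted p was 0.0574, shared by probe sets of Rgs5 and 2900052N01Rik. At an unadjusted limma p under 0.05 there were 2617 probe sets (5.81%), where an even spread of p-values would give 2252. When limma's spread was allowed to follow the intensity, 39 probe sets passed the adjusted threshold (0.0866%), of which 21 were higher and 18 lower in knockout brain. On 33 of these 39, both knockout arrays lay beyond all 4 control arrays. The 39 had passed on their difference from the NestinCre control, so this count is only descriptive. With the brightest probe set of each gene only, 10 of 18193 genes passed the adjusted threshold: Rgs5, Nrarp, 2900052N01Rik, Papss2, Gm11627, Cyp4f15 and Higd1b were lower, and Fcgr4, Cxcl10 and Clec7a were higher. With 2 arrays against 2, an exact permutation test of a single gene cannot go below 0.333. The words higher and lower therefore describe measured values below, and each is read against the background of all genes.

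That background is as follows. With 18193 genes read through their brightest probe set, 588 were higher in knockout brain at an unadjusted limma p under 0.05 (3.23%) and 526 were lower (2.89%). Both knockout arrays lay above both NestinCre control arrays for 2916 genes (16%) and below both for 2946 genes (16.2%). Such genes are called separated, and these shares are the background for each count of separated members below. The gene lists below were chosen with earlier results of these data known, so their counts are descriptive and no independent support. More weight was given to genes with several probe sets, since these read different stretches of a transcript. A probe set was called bright when its brighter group exceeded the median of all probe sets, 7.34, and a gene was called agreeing when it had at least 2 bright probe sets and every one was separated in the same direction. Of 4926 genes with at least 2 bright probe sets, 191 agreed on higher values in knockout brain (3.88%) and 183 on lower values (3.71%), while 254 had bright probe sets separated in both directions. Only 13 of the higher and 12 of the lower agreeing genes had a median difference of at least 1.5-fold. Every bright probe set had an unadjusted limma p under 0.05 in 27 of the higher and 30 of the lower genes.

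**Figure D1:**
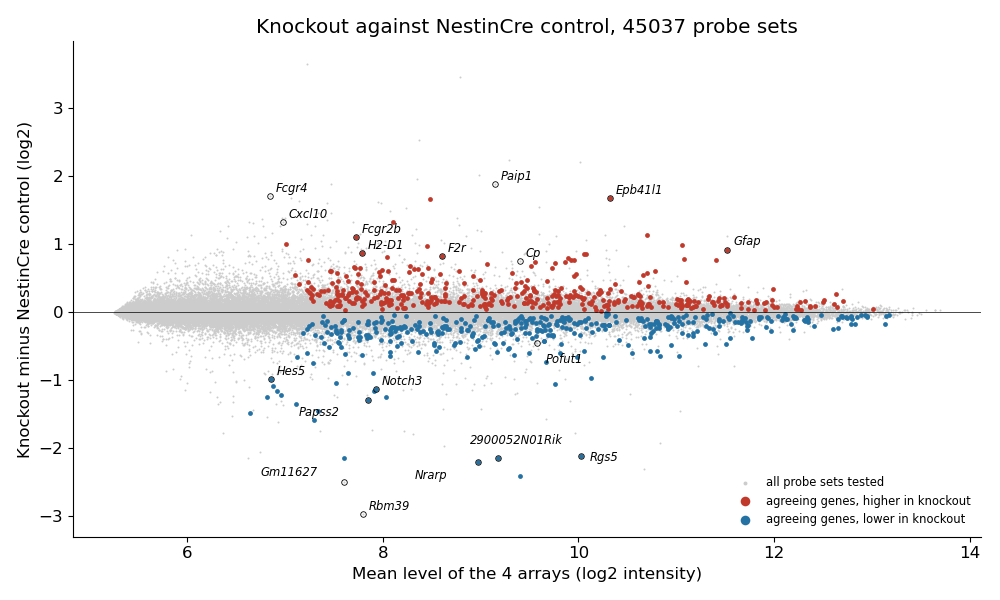
Each point is a probe set, with its mean log2 intensity over the 4 arrays on the horizontal axis and the log2 difference, knockout minus NestinCre control, on the vertical axis. Red and blue points are the bright probe sets of the 191 higher and 183 lower agreeing genes, and circles mark named probe sets. Probe sets of Rgs5, Nrarp and 2900052N01Rik lie below -2, away from the bulk of the points.

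Pofut1 itself was lower in knockout brain by a modest amount. Its brightest probe set read 9.25 and 9.44 on the knockout arrays, 9.84 and 9.77 on the NestinCre control arrays and 9.95 and 9.81 on the Flox control arrays. Both knockout arrays were therefore below all 4 control arrays. The difference was -0.46 (SE 0.09), 1.37-fold, with a limma adjusted p of 0.533. Its other 2 probe sets were dim, with differences of -0.21 and -0.31, and were separated in the same direction. The files do not say which exon each probe set reads, so whether a probe set lies inside the deleted part was not checked.

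Among the Notch receptors and ligands, Notch3 stood alone. Of 12 members measured, 5 were higher and 7 lower, 1 was separated, and the median difference was -0.00, the same as over all genes. Notch3, the receptor of mural cells, had 2 bright probe sets. The one with the smaller p read 7.40 and 7.32 in knockout brain and 8.51 and 8.49 in NestinCre control brain, and the groups were well apart, with Flox control arrays at 8.48 and 8.44. The difference was -1.13 (SE 0.06), 2.19-fold, limma adjusted p = 0.0638, and the brighter probe set gave -1.25 (SE 0.20). Notch1 and Notch2, the receptors of neural progenitors and astrocytes, differed by -0.01 and -0.00, and the ligands Dll1, Jag1 and Jag2 by 0.01, -0.02 and 0.07. Notch4, an endothelial receptor, read 7.13 and 7.73 against 7.74 and 7.67, so its groups overlapped and knockout replicate 1 carried the difference of -0.28. It became 0.026 without that array. The other bright probe set of Notch4 gave -0.23, and 1 of its 3 probe sets was separated lower. Of 29 genes that glycosylate, cleave or assemble with Notch, 5 were separated higher and 4 lower, close to the shares of all genes, 16% and 16.2%. Of these 29, 0 had an unadjusted limma p under 0.05, and differences ran from -0.23 to 0.21.

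The Notch targets were mostly lower. Of 16 measured, 14 were lower and 2 higher. Separation in the lower direction was seen for 8 and in the higher direction for 1, and 4 lower and 1 higher had an unadjusted limma p under 0.05, against backgrounds of 2.89% and 3.23%. The median was -0.10, and -0.18 without NestinCre control replicate 1. The members with the largest differences were Nrarp, Hes5 and Heyl. Nrarp, a small ankyrin-repeat protein that is induced by Notch and feeds back on it, read 7.91 and 7.82 in knockout brain against 10.12 and 10.03 in NestinCre control brain and 10.14 and 10.52 in Flox control brain. The difference was -2.21 (SE 0.14), 4.63-fold, limma adjusted p = 0.105, and the second probe set gave -1.59 (SE 0.16). Hes5, a transcriptional repressor that keeps neural stem cells undifferentiated, read 6.19 and 6.52 against 7.70 and 7.45 on its brightest probe set, and 6.30 and 6.43 against 7.50 and 7.22 on the other. Neither probe set overlapped between the groups, and the differences were -1.22 (SE 0.17, limma adjusted p = 0.295) and -0.99 (SE 0.11, limma adjusted p = 0.211). On both probe sets the knockout values lay in the dim range, where RMA, the method named by the submitters, compresses differences. Heyl, a repressor of the same kind found in mural cells among others, read 6.18 and 6.29 against 7.01 and 6.83, a difference of -0.69 (SE 0.10). Sox9, a factor of stem cells and astrocytes, differed by -0.33, Hes1 by -0.20 and Hey1 by -0.02. Myc, at 6.90 and 6.84 against 6.71 and 6.64, was the separated member on the higher side.

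The stretches of 250 bases before the start sites of Nrarp and Hes5 are printed because these are the targets with the largest differences. They are from RefSeq, build GRCm38.p6, and lie at chr2:25180508-25180757 on the + strand and chr4:154960673-154960922 on the + strand. Capitals mark the RBPJ motif TTCCCAC or its reverse complement GTGGGAA.
Nrarp: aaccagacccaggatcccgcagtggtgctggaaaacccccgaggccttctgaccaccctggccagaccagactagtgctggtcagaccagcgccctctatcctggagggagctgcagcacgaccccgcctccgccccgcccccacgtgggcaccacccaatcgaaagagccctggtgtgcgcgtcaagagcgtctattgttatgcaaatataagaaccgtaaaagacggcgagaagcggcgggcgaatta
Hes5: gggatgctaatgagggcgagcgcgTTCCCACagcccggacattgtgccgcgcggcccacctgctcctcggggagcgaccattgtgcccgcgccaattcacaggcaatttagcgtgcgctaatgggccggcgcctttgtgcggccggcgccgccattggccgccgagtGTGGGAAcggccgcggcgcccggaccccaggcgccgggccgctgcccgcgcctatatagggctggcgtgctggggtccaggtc
Hes5 held the motif at 226 and 83 bases before its start, counted to the first base of the match, in opposite orientations, and the Nrarp window held no match to these letters. Of 32851 promoter windows of this length, 5.42% held the motif on either strand, and of 27025 genes 6.18% held it in any window. Of the 9 Notch targets with a window in the table, Hes5, Hes7 and Hey2 held it, with differences of -1.22, -0.23 and -0.22, and none held the interferon motif described below. A match is a run of letters, and binding was not measured.

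**Figure D2:**
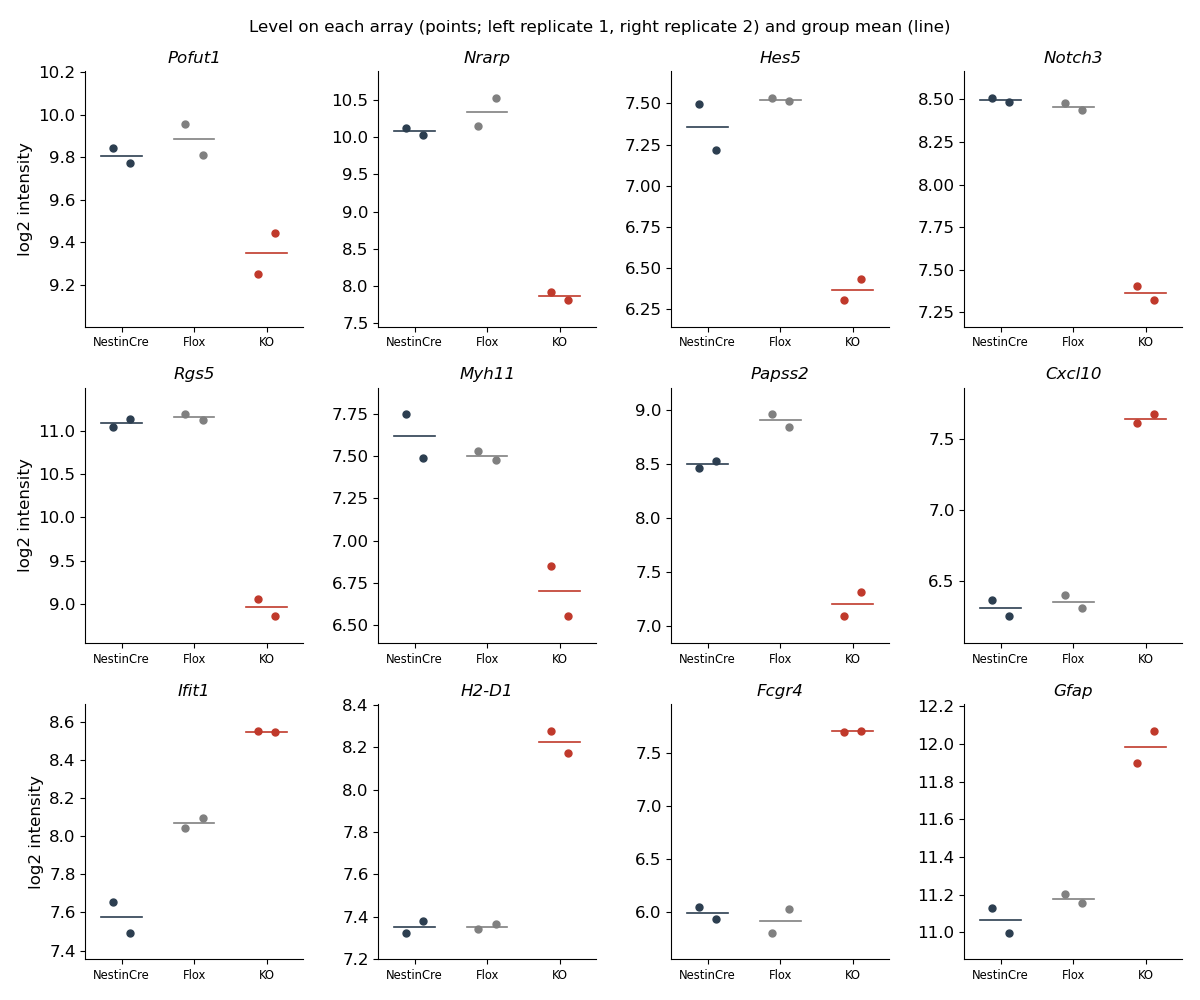
Log2 intensity of 1 probe set of each named gene on every array (points, replicate 1 left and replicate 2 right) with group means (lines), for NestinCre control, Flox control and knockout brain. Nrarp, Hes5, Notch3, Rgs5, Myh11 and Papss2 sit lower on both knockout arrays than on all 4 controls, and Cxcl10, Ifit1, H2-D1, Fcgr4 and Gfap sit higher. The vertical scale differs between panels.

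The largest agreeing difference belonged to Rgs5, a regulator of G-protein signalling that marks brain pericytes. Its 4 probe sets were all bright and all separated, with a median difference of -2.14. The brightest read 9.06 and 8.86 in knockout brain, 11.05 and 11.13 in NestinCre control brain and 11.19 and 11.12 in Flox control brain. That is a difference of -2.13 (SE 0.09), 4.37-fold, limma adjusted p = 0.0574, and the other probe sets gave -1.49, -2.15 and -2.42. The uncharacterised transcript 2900052N01Rik gave the same adjusted p: its brightest probe set read 8.20 and 8.003 against 10.26 and 10.23, a difference of -2.15 (SE 0.08), and its other probe sets gave -1.46 and -1.36. Gm11627, another uncharacterised gene with 1 bright probe set, read 6.41 and 6.31 against 8.87 and 8.84, a difference of -2.50 (SE 0.20, limma adjusted p = 0.142).

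Pericyte genes were mostly lower. Of 16 measured, 3 were higher and 13 lower, 9 were separated lower and none higher, and 8 had an unadjusted limma p under 0.05 on the lower side, where the background was 2.89%. The median difference was -0.42, beside -0.00 over all genes, and summed intensities were 5293 and 5208 in knockout brain against 8042 and 8120 in NestinCre control brain. Rgs5, described above, belongs to this list and made up the larger part of that fall in the sums. Rgs5, Notch3, Higd1b, Art3 and P2ry14, all members, are themselves among the lower genes with the smallest limma p-values of all genes. The list was chosen with earlier results of these data known, so its counts are not independent support. Higd1b, a small mitochondrial protein enriched in pericytes, read 6.49 and 6.52 against 7.38 and 7.40, a difference of -0.88 (SE 0.06, limma adjusted p = 0.124). Art3, an ADP-ribosyltransferase family member, read 7.11 and 7.13 against 7.97 and 8.14, and P2ry14, a receptor for UDP-sugars, read 6.86 and 7.00 against 7.68 and 7.70. The groups of both were far apart relative to their replicates. Pdgfrb, the receptor through which pericytes are recruited to vessels, differed by -0.58, Atp13a5 by -0.54 and Ndufa4l2 by -0.45. Other pericyte genes were close to 0 or above it. Kcnj8 and Abcc9, which form a potassium channel of these cells, differed by 0.16 and 0.02, Cspg4 by 0.06, Vtn by -0.06 and Anpep by -0.06.

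Genes of vascular smooth muscle were mostly lower too. Of 16 measured, 12 were lower, 9 were separated lower and none higher, and 6 had an unadjusted limma p under 0.05, with a median of -0.14. That median was -0.44 over the members above the median brightness only, -0.06 without NestinCre control replicate 1 and -0.21 without NestinCre control replicate 2. Myh11, the smooth muscle myosin heavy chain, read 6.85 and 6.55 against 7.75 and 7.49, a difference of -0.92 (SE 0.14, limma adjusted p = 0.318). Acta2, smooth muscle actin, differed by -0.86, Tagln by -0.48, and Myl9 and Tpm2 by -0.45 each. Mylk, Tpm1 and Sncg were on the other side at 0.02, 0.10 and 0.09. Endothelial genes, which line the same vessels, were not lower as a group: 13 of 18 were higher, 8 were separated higher and none lower, 1 had an unadjusted limma p under 0.05, and the median was 0.16. Cldn5, Pecam1 and Emcn differed by 0.30, 0.23 and 0.27. From the Flox control, the endothelial median difference was 0.06 and that of Emcn 0.05. For Emcn the NestinCre control arrays were the ones apart. Summed endothelial intensities were 15573 and 17149 in knockout brain and 15191 and 15093 in NestinCre control brain. They were 16382 and 15726 in Flox control brain, so knockout replicate 2 was the highest. Leaving out that array brought the endothelial median to 0.03.

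Interferon response genes made the most uniform group on the higher side. Of 27 measured, 26 were higher and 1 was lower, 24 were separated higher and none lower, and 21 had an unadjusted limma p under 0.05, where the background of higher genes was 3.23%. The median difference was 0.50, and summed intensities were 11923 and 11732 in knockout brain against 8724 and 7851 in NestinCre control brain and 8407 and 8493 in Flox control brain. Usp18, which removes the ubiquitin-like protein ISG15 and damps interferon signalling, read 7.77 and 8.02 against 6.90 and 6.79, a difference of 1.05 (SE 0.10, limma adjusted p = 0.171). Ifit1, which binds viral RNA, read 8.55 and 8.54 against 7.66 and 7.49, with Flox control arrays between at 8.04 and 8.09. Its difference was 0.97 (SE 0.07, limma adjusted p = 0.125). Rsad2, the antiviral enzyme viperin, read 8.48 and 8.12 against 7.41 and 7.31, and Gbp3, a guanylate-binding protein, read 7.91 and 7.78 against 7.00 and 7.15. Neither gene overlapped between the groups. Trim30a differed by 0.99, Oasl2 by 0.95, Iigp1 by 0.81 and Rtp4 by 0.66, while Mx2, at 0.01, and Ifi35, at -0.04, did not follow. Cxcl10, a chemokine that interferon induces, had the largest difference of the 26 chemokines and cytokines measured. It read 7.61 and 7.67 against 6.37 and 6.26, with Flox control arrays at 6.40 and 6.31, a difference of 1.33 (SE 0.07, limma adjusted p = 0.0638).

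The windows of 250 bases before the starts of Cxcl10 and Ifit1 are printed because these genes belong to the interferon response, which has a known promoter motif, the interferon-stimulated response element. They are at chr5:92348890-92349139 on the - strand and chr19:34640639-34640888 on the + strand, from the same RefSeq table, and capitals mark TTTCNNTTTC or its reverse complement GAAANNGAAA, with N for any base.
Cxcl10: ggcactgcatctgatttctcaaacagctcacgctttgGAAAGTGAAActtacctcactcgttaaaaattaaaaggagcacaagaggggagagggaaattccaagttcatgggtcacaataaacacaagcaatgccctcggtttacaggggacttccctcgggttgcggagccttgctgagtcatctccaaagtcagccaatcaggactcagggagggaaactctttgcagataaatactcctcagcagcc
Ifit1: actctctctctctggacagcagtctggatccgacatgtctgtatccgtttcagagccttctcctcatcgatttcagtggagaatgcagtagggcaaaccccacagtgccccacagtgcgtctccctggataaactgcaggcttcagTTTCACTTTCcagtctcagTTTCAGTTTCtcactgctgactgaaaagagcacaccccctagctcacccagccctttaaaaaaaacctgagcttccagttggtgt
Cxcl10 held 1 match, 213 bases before its start, and Ifit1 held 2, at 104 and 85 bases. The motif occurred in 2.98% of all 32851 windows and, counting any window of a gene, in 3.46% of 27025 genes. Counted by gene in the same way, it occurred in 11 of the 20 interferon response genes that had a window. Those 11 had a median difference of 0.63, with a range from 0.20 to 0.99, and the 9 without a match had a median of 0.34, with a range from -0.04 to 0.95. None of the 20 held the RBPJ motif.

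Genes of antigen presentation were higher beside them. Of 16 measured, 15 were higher, 11 were separated higher and none lower, 8 had an unadjusted limma p under 0.05, and the median was 0.27, or 0.55 over the members above the median brightness only. From the Flox control, the knockout had a median difference of 0.14 and the NestinCre control one of -0.29. H2-K1 and H2-D1, the classical class I heavy chains, each had 3 bright probe sets that agreed, with medians of 0.70 and 0.85. The brightest H2-K1 probe set read 10.49 and 10.51 against 9.75 and 9.55, and Flox control arrays lay between at 9.98 and 9.87. Knockout arrays were thus above all controls, with a difference of 0.85 (SE 0.09, limma adjusted p = 0.181). The H2-D1 probe set with the smallest p read 8.28 and 8.17 against 7.33 and 7.38, a difference of 0.87 (SE 0.06, limma adjusted p = 0.124). Class I genes are near-identical copies of one another, so probes may read several of them, and they lie on chromosome 17. Nlrc5, the activator of class I genes, read 8.23 and 7.87 against 7.10 and 6.90, a difference of 1.05, and Psmb8, a subunit of the immunoproteasome, differed by 0.72. B2m, the class I light chain, differed by 0.26, and Cd74, the chaperone of class II, by 0.63. Tap1, Tap2 and Ciita differed by 0.12, 0.05 and -0.03.

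Microglia and macrophage genes were higher with unequal sizes. Of 36 measured, 32 were higher, 28 were separated higher and 3 lower, 21 higher and 1 lower had an unadjusted limma p under 0.05, and the median was 0.35. Summed intensities were 34037 and 35026 against 29837 and 29790. The largest difference of the list was that of Fcgr4, an activating receptor for IgG. It read 7.70 and 7.71 against 6.04 and 5.94, with Flox control arrays at 5.80 and 6.03. Its difference was 1.71 (SE 0.09), 3.28-fold, limma adjusted p = 0.0638. Fcgr2b, the inhibitory receptor, had 2 bright probe sets that agreed, at 1.11 and 0.61, and Fcgr3 and Fcgr1 differed by 0.87 and 0.71. Clec7a, a receptor for fungal glucan that marks activated microglia, read 7.01 and 6.86 against 5.66 and 5.82, a difference of 1.19 (SE 0.09, limma adjusted p = 0.124). Itgax, the CD11c integrin chain, read 6.40 and 6.30 against 5.58 and 5.63, and Slc11a1, a metal transporter of phagosomes, read 7.999 and 8.11 against 7.23 and 7.12. Both were well apart. Among other members, named after their values were seen, P2ry12 differed by 0.14, Tmem119 by 0.25, Csf1r by 0.12, Siglech by 0.04 and Cx3cr1 by 0.34, and Fcrls was lower at -0.30. Apoe, which astrocytes also make in quantity, was lower at -0.51. Blood cell genes, of which 2 of 10 were bright, had summed intensities of 714 and 693 in knockout brain and 713 and 1732 in NestinCre control brain. The value of 1732 came from S100a8 and S100a9, and the part of blood cells in the immune differences was not tested.

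Among the 26 chemokines and cytokines, 13 were separated higher and 4 lower, beside 16% and 16.2% of all genes. Of these, 5 higher and 4 lower had an unadjusted limma p under 0.05. Next to Cxcl10, Ccl12, a ligand of CCR2, read 7.47 and 7.40 against 6.60 and 6.41, and Cxcl13, which attracts B cells, read 6.64 and 6.65 against 6.21 and 6.32. Both were separated, the latter by a small margin. Lower were Ccl9 at -0.65, Il33 at -0.37, Il18 at -0.33 and Cxcl14 at -0.30. Complement genes divided: the C1q chains C1qa, C1qb and C1qc, which microglia make, differed by 0.37, 0.16 and 0.40 and had unadjusted limma p-values under 0.05, while the median of the 13 measured was 0.02.

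Gfap, the intermediate filament that rises in reactive astrocytes, was higher on all 3 of its probe sets. The brightest read 11.90 and 12.07 in knockout brain against 11.13 and 11.00, with Flox control arrays at 11.20 and 11.15, a difference of 0.92 (SE 0.09, limma adjusted p = 0.156), and the others gave 0.76 and 0.73. Cp, the ferroxidase ceruloplasmin, had 7 bright probe sets of which 6 were separated higher, and the one with the smallest p read 9.76 and 9.80 against 9.03 and 9.02. Other genes of reactive astrocytes were less uniform. Of 22 measured, 11 were separated higher and 3 lower, 6 had an unadjusted limma p under 0.05, all higher, and the median was 0.07. It was 0.14 without knockout replicate 1, 0.13 without NestinCre control replicate 2 and 0.04 without NestinCre control replicate 1. Between knockout and Flox control the median of this list was -0.01. Serpina3n, a protease inhibitor, differed by 0.49 from the NestinCre control and by 0.12 from the Flox control, with the NestinCre control arrays the ones apart. Vim, a filament partner of Gfap, differed by 0.07, and Hspb1 and S100a10 were lower at -0.15 and -0.13.

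General astrocyte genes lay on the opposite side from Gfap. Of 25 measured, 21 were lower and 4 higher, and 15 were separated lower and 3 higher, beside 16.2% and 16% of all genes. An unadjusted limma p under 0.05 was found for 11 lower and 1 higher, beside 2.89% and 3.23%. The median was -0.18, which became -0.10 without knockout replicate 1. Papss2, Cyp4f15, Entpd2, Prex2 and Maob belong to this list and are among the lower genes with the smallest limma p-values of all genes. The list was chosen with earlier results known, so its counts are not independent support. Papss2, which makes the sulfate donor for sulfation, had 2 bright probe sets that agreed. The brightest read 7.09 and 7.31 against 8.46 and 8.52, a difference of -1.29 (SE 0.10, limma adjusted p = 0.125). Cyp4f15, a fatty acid hydroxylase, read 5.57 and 5.81 against 7.29 and 7.16, a difference of -1.53 (SE 0.12, limma adjusted p = 0.125). Entpd2, which breaks down extracellular ATP, read 7.47 and 7.67 against 8.56 and 8.44, and Prex2, an activator of Rac, read 9.13 and 9.15 against 9.84 and 9.91. Knockout arrays were below all 4 controls for both. Maob, the monoamine oxidase of astrocytes, read 8.85 and 8.91 against 9.48 and 9.45, a difference of -0.58 (SE 0.06, limma adjusted p = 0.156). Phgdh, the first enzyme of serine synthesis and strong in astrocytes, was lower on all 4 of its probe sets, with a median of -0.64. The probe set with the smallest p read 10.51 and 10.52 against 11.16 and 11.16. Chrdl1, an astrocyte-secreted antagonist of BMP, had 2 agreeing bright probe sets at -1.16 and -0.67. Slc1a2, a glutamate transporter, had 4 bright probe sets that were all separated lower, with a median of -0.53 and a range from -0.90 to -0.23. On their brightest probe sets Slc1a3, the other main glutamate transporter of astrocytes, differed by -0.21, and Aldh1l1 and Gja1 by -0.03 and -0.01. Aqp4, the water channel, was higher on both of its bright probe sets, at 0.17 and 0.64.

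Genes of neural stem and progenitor cells were more often lower than higher. Of 23 measured, 14 were lower and 9 higher, and the median was -0.10. Separated were 10 lower and 3 higher, beside 16.2% and 16% of all genes. An unadjusted limma p under 0.05 was found for 6 lower and 1 higher, beside 2.89% and 3.23%. On the higher side both counts were close to the shares of all genes. Beside Hes5, Thbs4, a matrix protein of subventricular zone astrocytes, read 6.27 and 6.66 against 7.50 and 7.26, a difference of -0.91 (SE 0.17, limma adjusted p = 0.456). Rlbp1, a retinoid-binding protein, read 7.58 and 7.78 against 8.40 and 8.36, a difference of -0.70. Nr2e1, the stem cell receptor also called TLX, differed by -1.07, Sox2 by -0.37 and Sox21 by -0.31. These were named after their values were seen. Prom1 was higher by 0.19, and Nes and Pax6 differed by 0.02 each. Among 19 neuroblast genes, none had an unadjusted limma p under 0.05, and the median was -0.01. Dcx differed by -0.23 and Sox11 by -0.10.

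Proliferation genes were higher in the larger number. Of 23 measured, 20 were higher, 13 were separated higher and 1 lower, 7 higher and 0 lower had an unadjusted limma p under 0.05, and the median was 0.18, but only 10 were bright. With the mean of all probe sets of a gene the median was 0.12. Median levels were 7.01 and 6.99 in knockout brain, 6.78 and 6.70 in NestinCre control brain and 6.98 and 6.99 in Flox control brain. From the Flox control, the knockout had a median difference of 0.08 and the NestinCre control one of -0.15. Mki67, a marker of cycling cells, read 7.17 and 7.21 against 6.52 and 6.81, and Top2a, the topoisomerase of dividing cells, read 6.83 and 6.77 against 6.08 and 6.41. Neither overlapped, and NestinCre control replicate 1 was the lowest array for both. Cdk1 differed by 0.52 (SE 0.13, limma adjusted p = 0.653). Mcm2 and Mcm5, which license replication, were lower at -0.24 and -0.16. Which cells carried these transcripts is not something whole-brain RNA can show.

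Oligodendrocyte precursor genes leaned higher and myelin genes did not. Of 16 precursor genes, 13 were higher, 9 were separated higher and 2 lower, 4 higher and 1 lower had an unadjusted limma p under 0.05, and the median was 0.16. Without NestinCre control replicate 1 the median was 0.10, and without knockout replicate 1 or NestinCre control replicate 2 it was 0.26 or 0.25. Vcan, the matrix proteoglycan versican, had 3 bright probe sets that agreed, with a median of 0.60, and the brightest read 10.15 and 10.31 against 9.38 and 9.60, a difference of 0.74 (SE 0.12, limma adjusted p = 0.408). Enpp6, which marks cells about to myelinate, read 9.24 and 8.94 against 8.15 and 8.62, Olig1 differed by 0.35, and Bcan was lower at -0.39. Pdgfra differed by 0.27 from the NestinCre control and by -0.02 from the Flox control, and the NestinCre control arrays were the ones apart. Of 15 myelin genes, 4 were separated lower and none higher, none had an unadjusted limma p under 0.05, and the median was -0.01.

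Tissues at the edge of the dissection were also measured. Choroid plexus genes were lower for 16 of 17, 8 were separated lower and none higher, 4 had an unadjusted limma p under 0.05, and the median was -0.21. It was -0.12 without knockout replicate 1, -0.13 without NestinCre control replicate 1 and -0.31 without knockout replicate 2. Kcnj13, a potassium channel of the choroid epithelium, read 8.99 and 8.80 against 9.57 and 9.30, Kl, which encodes Klotho, differed by -0.43, and Ttr, the most abundant transcript of this tissue, by -0.05. Summed intensities were 17279 and 17785 against 19662 and 17987, which did not overlap although the nearest arrays were close. Of 18 genes of meningeal fibroblasts, 5 were separated higher and 3 lower, beside 16% and 16.2% of all genes. Dcn, a proteoglycan, read 9.42 and 9.66 against 9.08 and 9.001, while Lum was lower by a difference of -0.23. How much of these tissues each sample held was not tested.

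Neuronal genes differed little. Of 23 neuronal genes, 1 was separated higher and 3 lower, none had an unadjusted limma p under 0.05, and differences ran from -0.18 to 0.10. Of 20 immediate early genes, which follow neuronal activity, 16 were lower with a median of -0.10, and none had an unadjusted limma p under 0.05. With 1 array left out, the median of the immediate early genes ran from -0.15 to -0.02. Cholesterol synthesis genes had a median of 0.02 and 1 of 15 with an unadjusted limma p under 0.05, Cyp51 at -0.20. Of the 10 pituitary genes, 2 were bright, and none had an unadjusted limma p under 0.05.

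**Figure D3:**
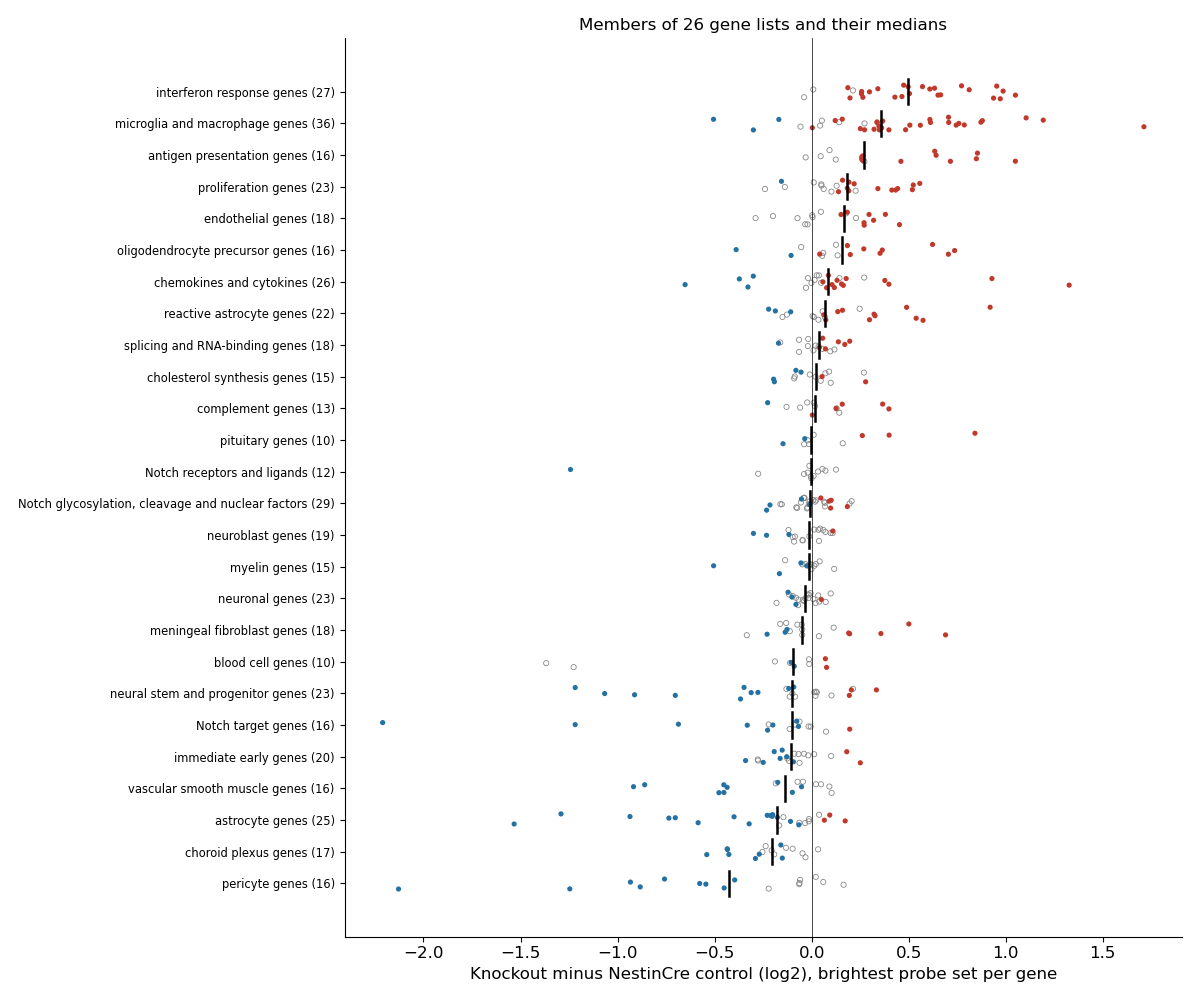
Each row is a gene list with the number of members measured, and each point is a member's log2 difference, knockout minus NestinCre control, on its brightest probe set. Filled points are members whose groups do not overlap (red higher, blue lower), open points overlap, and black bars are medians, which run from -0.42 for pericyte genes to 0.50 for interferon response genes.

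The remaining agreeing genes included several of no list. Lower were Prr18 at a median of -0.72 and Gtf2h4, a subunit of the transcription and repair factor TFIIH, at -0.63. Sec14l3, a lipid-binding protein, had a median of -1.13, but its probe set with the smaller p read 6.27 and 6.41 against 6.68 and 8.33, so that NestinCre control replicate 2, the array with high S100a8 and Bpifa1, set the size. Higher were Ifi27, an interferon-induced mitochondrial protein, at a median of 0.64, and Lcp1, an actin-bundling protein of leukocytes, at 0.61. Pisd-ps3, a pseudogene of a phospholipid enzyme, was higher on 5 probe sets with a median of 1.13, and its brightest read 11.51 and 11.60 against 10.41 and 10.71. Flox control arrays were at 10.58 and 11.70, so the control groups spread widely. Probes of a pseudogene may also bind RNA of its parent gene.

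Some genes had probe sets that disagreed. Paip1, a partner of the poly(A)-binding protein, had the smallest p of the higher single genes on a probe set that read 10.07 and 10.11 against 8.10 and 8.32, with Flox control arrays at 8.25 and 8.37, a difference of 1.88 (SE 0.09, limma adjusted p = 0.0638). A second probe set gave 1.60, but the brightest gave -0.17 and another -0.19. Rbm39, a splicing factor, had 12 bright probe sets, of which 3 were separated lower, 4 higher and 5 overlapped. On one of them it read 6.43 and 6.19 in knockout brain, 9.45 and 9.13 in NestinCre control brain and 6.01 and 6.20 in Flox control brain, a difference of -2.98 (SE 0.15, limma adjusted p = 0.0638), whereas its brightest differed by -0.02. Here the Flox control arrays sat with the knockout arrays and the NestinCre control arrays stood apart.

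The Flox control arrays, which carry the floxed alleles without Cre, are given beside many of the genes above. Both NestinCre control arrays lay beyond all knockout and Flox control arrays for 1647 of 18193 genes (9.05%), and both knockout arrays lay beyond all 4 controls for 3307 genes (18.2%). Among agreeing genes, the knockout arrays lay beyond all controls on every bright probe set for 111 of the 183 lower and 73 of the 191 higher genes. The NestinCre control arrays were the ones apart on every bright probe set for 14 of the lower and 35 of the higher genes. Agreeing genes are separated from the NestinCre control by definition, so the shares of all 18193 genes are no background for these counts. For Rgs5, Nrarp, Notch3, Papss2 and Hes5, median differences from the Flox control were -2.14, -2.19, -1.09, -1.48 and -1.35, beside -2.14, -1.90, -1.19, -1.17 and -1.10 from the NestinCre control. The 2 comparisons share the knockout arrays. F2r, the thrombin receptor, went the other way: it read 10.40 and 10.18 in knockout brain, 9.48 and 9.49 in NestinCre control brain and 10.34 and 10.49 in Flox control brain. Its median was 0.81 against the NestinCre control and -0.26 against the Flox control. Alad, an enzyme of haem synthesis, gave 0.71 and 0.15, and Epb41l1, a membrane cytoskeleton protein of neurons, gave 0.78 and 0.07. H2-K1 and Gfap kept differences from the Flox control of 0.42 and 0.81. The largest difference of this kind, singled out after its value was seen, was Gdpd3, a lysophospholipase D, at 10.36 and 10.69 in knockout brain, 7.20 and 6.91 in NestinCre control brain and 10.57 and 9.72 in Flox control brain, a difference of 3.47 (SE 0.31, limma adjusted p = 0.156). Whether these genes differ by the floxed line, its genetic background or the mating that gave the NestinCre control mice cannot be told apart here.

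**Figure D4:**
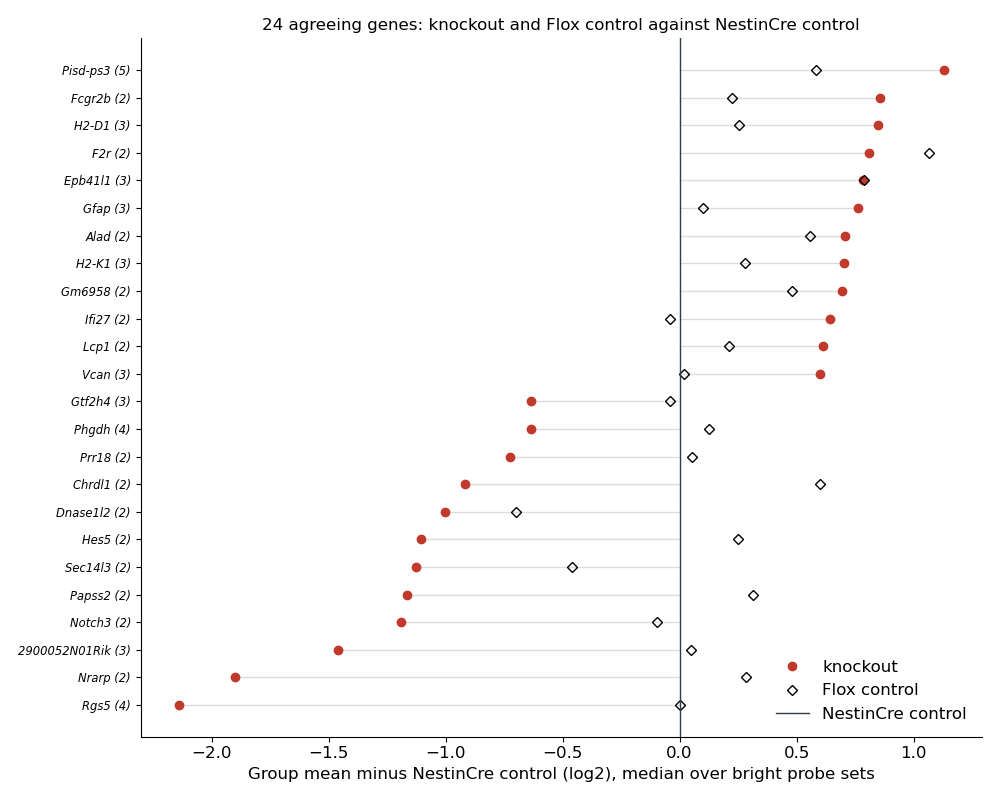
Median log2 difference from NestinCre control over the bright probe sets (number in brackets) of the agreeing genes with the largest differences, for knockout (filled) and Flox control (open diamonds), with NestinCre control at 0. The Flox control lies near 0 for Rgs5 and Notch3 and near or beyond the knockout for F2r, Alad and Epb41l1.

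Chromosome 17, which carries the class I genes, held 25 of the 374 agreeing genes (6.68%), beside 190 of the 4926 genes with at least 2 bright probe sets (3.86%). On that chromosome 9.83% of genes had an unadjusted limma p under 0.05, beside 6.12% of all genes. It had the highest share of the chromosomes compared, followed by chromosomes 13 and 14 at 8.55% and 7.5%. The NestinCre control arrays were apart for 10.2% of its genes, beside 9.05% of all genes. Notch3, Notch4, Cyp4f15, Psmb8, Gtf2h4 and Prr18 lie there too. Dnase1l2, also there, read 6.66 and 5.74 against 7.36 and 7.53, with Flox control arrays at 7.08 and 6.34.

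DNA linked to the floxed allele is a further difference between the groups, so the genes next to Pofut1 on chromosome 2 were read in gene order. Of the 50 measured genes on each side, 44 were higher and 56 lower in knockout brain, and the median was -0.02. Of these 100 genes, 14 were separated higher and 21 lower, beside 16% and 16.2% of all genes. An unadjusted limma p under 0.05 was found for 4 higher and 6 lower, beside 3.23% and 2.89% of all genes. The NestinCre control arrays stood apart from all others for 15 of these 100 genes, beside 9.05% of all genes. Commd7, 5 genes away, read 9.80 and 9.49 in knockout brain, 9.002 and 9.001 in NestinCre control brain and 9.81 and 9.77 in Flox control brain. The NestinCre control arrays stood apart on this probe set, with a difference of 0.65 (SE 0.11, limma adjusted p = 0.427), but not on its second bright probe set, where the difference was -0.17. Myh7b, a myosin heavy chain 43 genes away, read 7.67 and 7.94 against 7.23 and 7.02, with Flox control arrays at 7.92 and 8.02. Cdk5rap1 and Slc52a3 had differences of 0.26 and -0.57 with the NestinCre control arrays apart, whereas Cox4i2, a respiratory subunit, read 6.81 and 6.93 against 7.44 and 7.25 with Flox control arrays at 7.73 and 7.47. The nearest genes, Plagl2 and Kif3b, differed by -0.03 and -0.01.

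A stretch that overlaps the far end of this window was picked after its values were seen, and its genes at positions 41 to 50 are counted in both. Of the 35 genes at positions 41 to 75 on the far side of Pofut1, the NestinCre control arrays stood apart for 14 (40.0%), where all genes gave 9.05%, and 10 had an unadjusted limma p under 0.05. At positions 41 to 75 on the opposite side, the NestinCre control arrays stood apart for 2 of 35 genes, and at positions 1 to 50 on that side for 7 of 50. Both Rbm39, at position 60, and Epb41l1, at position 65, lie in this stretch, and on their brightest probe sets they were not among the 14. Of the 12 Rbm39 probe sets, the NestinCre control arrays were apart on 5, and of the 3 Epb41l1 probe sets on 2. Cnbd2, at position 63, read 7.39 and 7.53 in knockout brain, 6.88 and 6.53 in NestinCre control brain and 7.48 and 7.57 in Flox control brain. In the same order Ergic3, a protein of the secretory pathway at position 53, read 10.78 and 10.65, 11.43 and 11.17, and 10.92 and 11.00 on its brightest probe set. The NestinCre control arrays were apart on 1 of its 4 bright probe sets, whose differences ran from -0.58 to -0.002. Myl9 of the smooth muscle list lies at position 69, and there the knockout arrays were the ones apart. The lowest genes of the window nearest to Pofut1, Bpifa1 and Bpifb3, owed their differences of -2.15 and -1.55 to NestinCre control replicate 2 alone, which read 9.76 and 9.52.

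**Figure D5:**
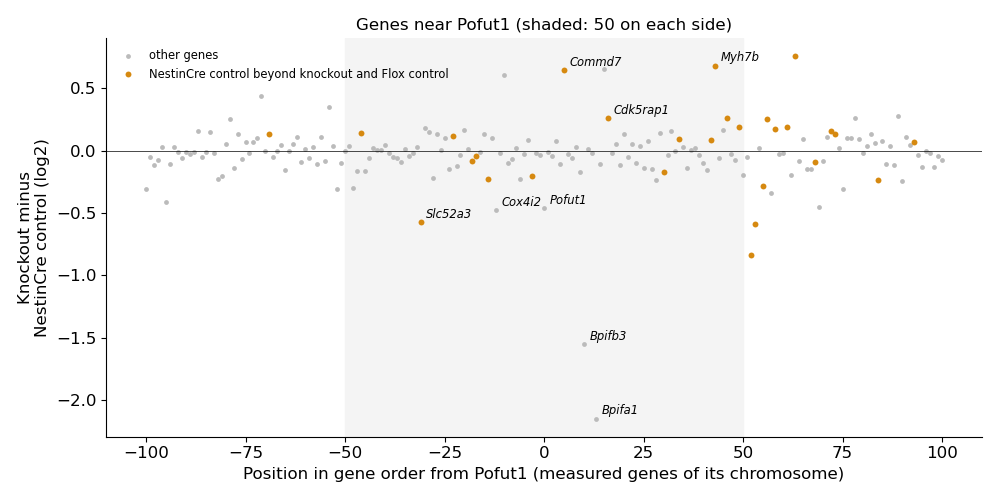
Log2 difference, knockout minus NestinCre control, on the brightest probe set of each measured gene of the chromosome against its position in gene order from Pofut1, with 50 genes on each side shaded. Orange points are genes whose NestinCre control arrays lie beyond all knockout and Flox control arrays, and they are most frequent at positions 41 to 75, where they make up 14 of 35 genes.

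Because each group held 1 male and 1 female array, the difference was also read within each sex, as a value between 1 array and 1 array with no test. The sign was the same in both sexes for 52.3% of all 18193 genes, and for separated genes it is the same by definition. Sizes were close for Rgs5, at -2.07 in males and -2.19 in females, Nrarp at -2.12 and -2.31, Notch3 at -1.08 and -1.18, Cxcl10 at 1.35 and 1.30 and Fcgr4 at 1.76 and 1.66. These probe sets were picked by small p-values on the same arrays. A small p needs a small spread within groups, which here includes sex, so close sizes were favoured by the choice. Sizes were unequal for Myh11, at -0.64 and -1.19, Cdk1, at 0.25 and 0.79, and Col3a1, a fibrillar collagen, at 0.12 and 1.26. List medians within males and females were -0.36 and -0.52 for pericyte genes, 0.58 and 0.40 for interferon response genes and 0.35 and 0.43 for microglia and macrophage genes.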

How the data were processed

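The table deposited by the authors gives intensities, linear and not log2, for each probe set on each array. The submitters' processing notes list GCOS and RMA without version, role or order. Per the labels' protocols, 25 ng of RNA was amplified and labelled with biotin. RMA gives arrays a common distribution and compresses differences of dim probe sets. The log2 of each deposited intensity was taken.

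After 64 control probe sets were removed from 45101, 45037 were tested. Of these, 34945 had 1 gene symbol, 932 several and 9160 none, and only the first were named. Names and gene order came from RefSeq GRCm38.p6, which 34741 probe sets matched. The sources used here do not give the build of the probe annotation.

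Group means of all 6 arrays were fitted with limma 3.58.1 (R 4.3.3, lmFit and eBayes without trend, 3 residual degrees of freedom and 4.94 with the prior), and knockout was compared with NestinCre control, with Benjamini-Hochberg adjustment over 45037 probe sets. The step was tested on simulated data. The number of arrays limits the precision.

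Named were Pofut1, up to 12 agreeing genes per direction by median difference, up to 8 single genes per direction by p, up to 4 members per list by p, and 5 neighbours of Pofut1. Other members of a list appear as examples of their lists, and other genes are marked as picked after their values were seen. The comparison, the lists and the rules were chosen with earlier results of these data known. Gene lists are described by counts and medians on the brightest probe set, with no test of the list. Alternatives were repeated quantile normalization, centring, brightness filters, an intensity trend, the 4 arrays alone, the replicate number as a block, sex, an added constant of 16, control probe sets kept, 1 probe set per gene and each array left out.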

Additional observations from a re-analysis of the deposited data

Results flagged for a closer look

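S100a8 differed by -2.87 between the male arrays and by 0.14 between the female arrays. The signs were opposite, with 1 array on each side, and the difference between the sexes was not tested. NestinCre control replicate 2, a male array, read 9.16, and the other arrays read 6.17 to 6.56.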

How the results depend on the processing

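The count of probe sets past the adjusted threshold, 0 of 45037, became 9 after centring on array medians, 24 and 27 with probe sets above the 25th percentile or the median only, 39 with an intensity trend, 72 with the trend and robust fitting, 1 with the 4 arrays of the comparison alone and 10 with 1 probe set per gene. It was 0 to 1 when each array was left out. It stayed at 0 after repeated quantile normalization, with sex as a covariate, with the constant of 16 and with control probe sets kept. The count at an unadjusted p, 2617, was 1226 above the median, where fewer probe sets were tested. Agreeing genes numbered 100 higher (191 as reported) with brightness set at the 75th percentile, and 32 higher and 35 lower (183 as reported) when each bright probe set had to differ by 0.3. Without 1 array they numbered 393 to 833 higher and 460 to 935 lower, since 1 array separates from 2 more easily.

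The replicate numbers did not pair the samples: deviations of equally numbered knockout and NestinCre control arrays correlated at -0.31. With the replicate number as a block, 0 probe sets passed and 2404 had an unadjusted p under 0.05 (1946 with 4 arrays). Crossing the numbers is the same split as sex, and sex as a covariate on the 4 arrays gave 3174.

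Of 95 named genes under 19 alternatives, 1719 of 1793 values kept direction and side of the threshold, 72 passed it and 2 reversed. Most of these genes were named by their values on the same arrays, so these counts are no independent support. A separated probe set cannot change direction when 1 array is left out. As no probe set passed in the reported fit, keeping the side of the threshold means not passing. Notch4, at -0.28, ran from -0.58 to 0.026 without 1 array, the latter without knockout replicate 1. S100a8, at -1.37, ran from -2.86 to 0.13, the latter without NestinCre control replicate 2. The medians of 17 of 26 lists kept their sign throughout. Dim probe sets, near the background of the arrays, limit what could be seen for Hes5, Cyp4f15 and Itgax.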
